A study of Mus musculus with 91 samples.

Results

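T cell receptor signalling genes were followed in mouse splenic regulatory T cells (Tregs) after exposure to interleukin-2. The 33 genes were taken by symbol from a list of the receptor's chains, its coreceptors, and the kinases, adaptors, lipid messenger enzymes and transcription factors below it. They are 33 of the 20378 genes with a row in at least 1 of the 8 deposited count tables, and all 33 passed the low-count filter in every table.

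Tregs are the suppressive arm of the CD4 T cells and are defined by the transcription factor Foxp3. They came from the spleens of RFP-FoxP3+ BL6 mice (strain C57/BL6), in which a red fluorescent protein marks cells that express Foxp3, so every group, controls included, carried that reporter; the animals' age is not given in the sources used here. At 1.5 h and at 16 h there were 4 libraries each of FP (the mIL-2/CD25 fusion protein, mouse IL-2 joined to the alpha chain of its receptor), of mIL-2 and of PBS, the buffer. At 4 h there were 3 libraries of FP, 4 of IL-2 and 3 of PBS; at 72 h there were 4 of FP, 3 of IL-2 and 3 of PBS; at 168 h there were 4 of FP and 3 of PBS. Cells exposed to IL-2 or PBS in vitro for 1.5 h gave 3 libraries each, and so did a high dose of IL-2 and its PBS, for which the labels give no dose and no time. A restimulation table, read 1.5 h after the last injection, held 3 libraries of PBS followed by FP (single FP), 4 of FP followed by FP (repeated FP) and 3 of PBS followed by PBS. The labels name 20 µg of FP or 100 µL of PBS, give no amount for IL-2, and do not say that replicates of a group were separate animals. The p-values therefore rest on a spread between samples that may be technical.

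The T cell receptor has no enzyme activity of its own. When it binds peptide on another cell, the kinase Lck phosphorylates the CD3 and zeta chains, Zap70 docks there and phosphorylates the adaptors Lat and SLP-76 (the product of Lcp2), and phospholipase C-gamma makes lipid and calcium signals that lead to NFAT, NF-kB and Ras. Tregs need this pathway for their suppressive state, and IL-2, which signals through a separate receptor and the transcription factor STAT5, acts beside it.

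Library totals ran between 12.2 and 46.1 M counted reads. Levels are CPM, read counts scaled to a common library total with TMM factors, and a gene was called changed at an adjusted p below 0.01 in edgeR's quasi-likelihood test over all genes of its table. Foxp3 lay between 349 and 982 CPM in every library used, and summed CD8 T cell and NK cell markers stayed at or below 65.2 CPM. Markers of other cells were higher. Summed myeloid markers reached 2310 CPM, under IL-2 at 1.5 h, and summed B cell markers 1320 CPM, under the high dose of IL-2. Members varied least between libraries of a group in vitro, where the widest ratio of highest to lowest library was 1.29, and most at 4 h (4.12, Cd3d), under the high dose (7.45, Themis) and under restimulation (5.51, Themis). The library labelled single FP replicate 1 stood apart: the IL-2 receptor chain gene Il2ra had 566 CPM there, against 1790 and 1710 CPM in the other single FP libraries and 569 to 639 CPM in the PBS libraries. The restimulation results below are given with and without it.

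In PBS Tregs at 1.5 h, levels per kilobase of exon spanned a wide range. Dgka, a diacylglycerol kinase that removes the lipid signal, and Lck were highest, at 188.5 ± 10.3 and 187.3 ± 13.9 CPM per kb (SD, n = 4), and the order of this pair lay within their spread. The CD3 chain gene Cd3e followed with 154.1 ± 5.6 CPM per kb and Ptprc, which encodes the phosphatase CD45, with 146.9 ± 13.9 CPM per kb, again within their spread of each other. Cd28, the costimulatory receptor, was lowest at 6.20 ± 0.40 CPM per kb. Above it came Malt1, a scaffold protease of the NF-kB branch, at 8.41 ± 0.74, and Themis, an adaptor known from thymocytes, at 8.48 ± 1.29 CPM per kb, which did not differ beyond their spread.

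Across 13 comparisons of a treated group with the PBS libraries of its own table, 28 of the 33 genes (each tested in all 13) were called at least once, as were 55.4% of the 15247 genes tested in all of them. The 5 that were never called were Cd3e, the kinases Lck and Zap70, the phosphatase gene Ptpn6 and the exchange factor gene Vav1. In 4 comparisons each, Ptpn22, Cd5, Rasgrp1, Nfatc2, Cd6, Nfatc3 and Malt1 were called. Rasgrp1 was higher in all 4 of its calls, and Cd5, Cd6 and Nfatc3 were lower in all 4 of theirs, while Malt1, Nfatc2 and Ptpn22 were called in both directions.

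**Figure D1:**
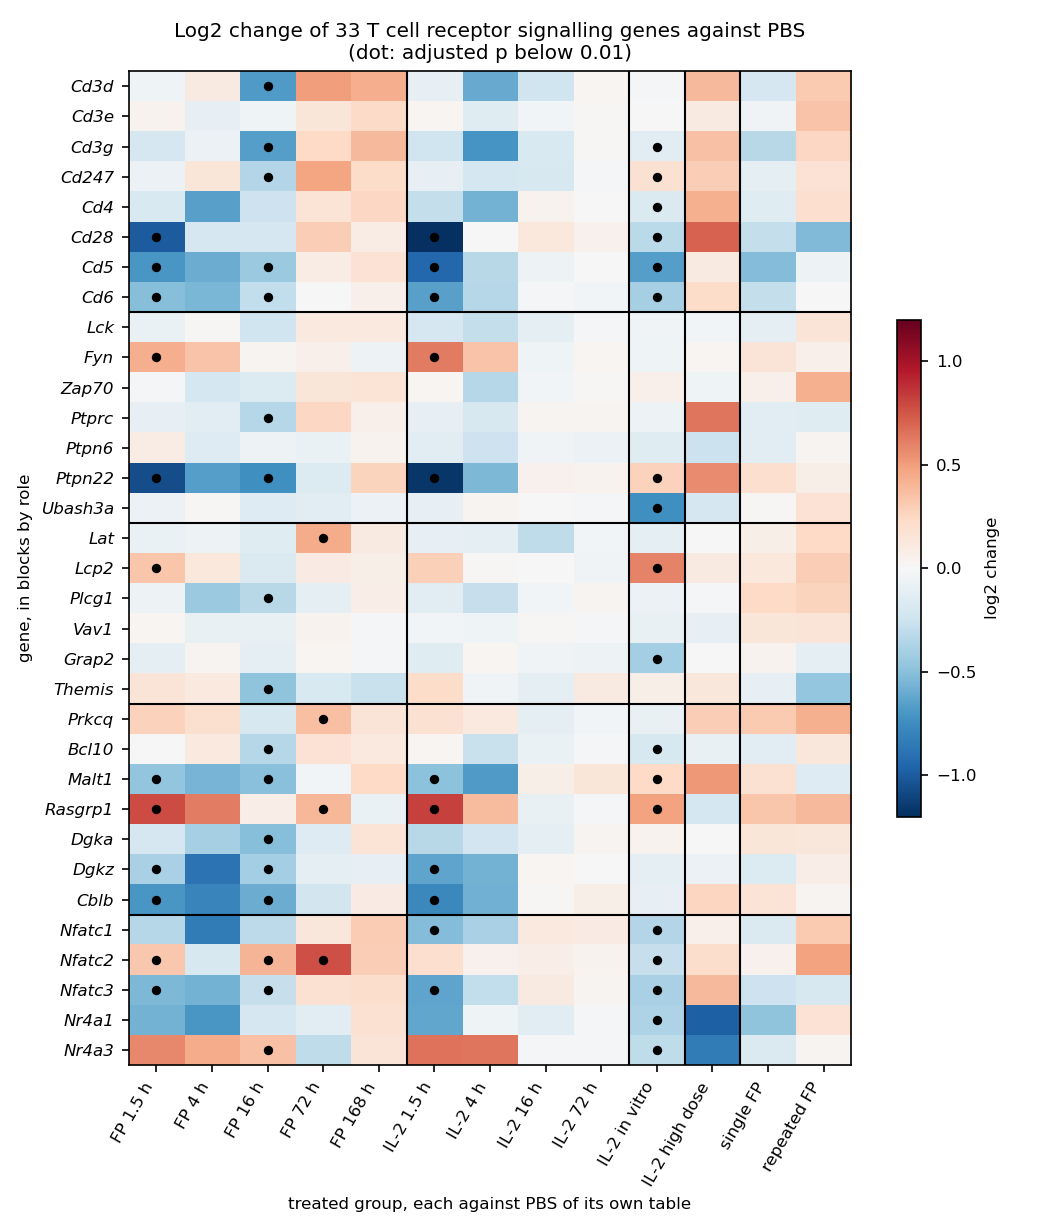
Heat map of the log2 change of the 33 genes (rows, grouped by role) in 13 comparisons of a treated group with PBS (columns); blue is lower and red higher than PBS, and a dot marks a call at an adjusted p below 0.01. Dots lie in the columns of IL-2 at 1.5 h, FP at 1.5, 16 and 72 h and IL-2 in vitro, and in none of the other 8 columns.

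At 1.5 h in the animal, Tregs of FP-treated and of IL-2-treated mice held less mRNA of Cd28, Cd5, Cd6, Ptpn22, Cblb, Dgkz, Malt1 and Nfatc3 and more of the Ras activator Rasgrp1 and the kinase Fyn than PBS Tregs. Under FP, 12 of the 33 genes were called, 4 higher and 8 lower, against 6.67% of all genes tested (4.39% higher and 2.28% lower). Under IL-2, 11 were called, 2 higher and 9 lower, against 14.2% of all genes (8.39% higher and 5.79% lower). The median log2 change of the members was -0.08 under FP and -0.12 under IL-2, against -0.0079 and -0.0081 over all genes tested. Both comparisons share the PBS libraries, and 10 genes were called in both, which is 83.3% of the FP calls and 90.9% of the IL-2 calls.

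Among the receptors, Cd28, Cd5 and Cd6 were lower and the CD3 chains were not called. Cd28 had 20.7, 22.5, 17.3 and 15.2 CPM under FP, 15, 19.6, 18.5 and 13 CPM under IL-2, and 36.3, 41.2, 38.5 and 35.9 CPM in PBS Tregs. Every treated library lay below every PBS library. The log2 change of Cd28 was -1.0 (SE 0.14, adjusted p = 0.00033) for FP and -1.2 (SE 0.14, adjusted p = 3.6e-05) for IL-2. Cd5 encodes a surface receptor that restrains the T cell receptor, and its level is known to follow the strength of that signal. It had 204, 228, 233 and 297 CPM under FP, 190, 198, 206 and 218 CPM under IL-2, and 352, 396, 395 and 420 CPM in PBS libraries. Neither treated group overlapped with PBS, and the log2 change was -0.70 (SE 0.10, adjusted p = 0.00045) for FP and -0.95 (SE 0.10, adjusted p = 1.7e-05) for IL-2. Cd6, its neighbour on chromosome 19 and a related receptor, had 233 to 290 CPM under FP and 220 to 246 CPM under IL-2. PBS libraries had 337 to 438 CPM of Cd6, also without overlap with the treated ones. Its log2 change was -0.51 for FP and -0.65 for IL-2. Cd3e had 617 to 682 CPM under FP, 607 to 664 CPM under IL-2 and 604 to 658 CPM in PBS libraries, ranges that overlap.

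Of the kinases and phosphatases, Fyn was higher and Ptpn22 lower. Ptpn22 encodes a phosphatase that switches off Lck and Zap70. It had 156, 205, 210 and 220 CPM under FP, 185, 230, 169 and 155 CPM under IL-2, and 410, 331, 305 and 607 CPM in PBS libraries. All PBS libraries lay above all treated ones, with a spread from 305 to 607 CPM among themselves. The log2 change was -1.06 (SE 0.19, adjusted p = 0.0021) for FP and -1.16 (SE 0.19, adjusted p = 0.00057) for IL-2. Fyn, a Src family kinase like Lck, had 613, 593, 582 and 514 CPM under FP, 638, 633, 666 and 698 CPM under IL-2, and 379, 439, 417 and 468 CPM in PBS libraries. The groups did not overlap, with a log2 change of 0.43 (SE 0.083, adjusted p = 0.0031) for FP and 0.63 (SE 0.083, adjusted p = 8.5e-05) for IL-2.

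The adaptors moved little: of 6, Lcp2 was called higher under FP and none was called under IL-2. Lcp2 had 492, 548, 509 and 524 CPM under FP, 471, 515, 531 and 486 CPM under IL-2, and 384, 434, 426 and 404 CPM in PBS libraries. Its log2 change was 0.33 (SE 0.071, adjusted p = 0.0066) for FP, a call lost in 10 of 17 alternatives, and its 0.28 for IL-2 did not pass the threshold (adjusted p = 0.01).

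The lipid messenger branch held changes in both directions. Rasgrp1 encodes the exchange factor that turns diacylglycerol into Ras activity. It had 684, 729, 660 and 619 CPM under FP, 656, 725, 679 and 687 CPM under IL-2, and 377, 427, 423 and 333 CPM in PBS libraries. No treated library came near the PBS range, and the log2 change was 0.79 (SE 0.089, adjusted p = 4.8e-05) for FP and 0.82 (SE 0.089, adjusted p = 1.6e-05) for IL-2. Dgkz, a kinase that removes diacylglycerol, had 306, 317, 320 and 378 CPM under FP, 267, 292, 273 and 285 CPM under IL-2, and 410, 454, 428 and 441 CPM in PBS libraries. It was lower by log2 changes of -0.39 for FP and -0.63 for IL-2, without overlap. Cblb encodes a ubiquitin ligase that restrains signalling when costimulation is weak. It had 199, 239, 212 and 224 CPM under FP, 190, 266, 186 and 184 CPM under IL-2, and 388, 322, 322 and 384 CPM in PBS libraries. The lowest PBS library was above the highest treated one, and the log2 change was -0.70 (SE 0.12, adjusted p = 0.0014) for FP and -0.78 (SE 0.12, adjusted p = 0.00029) for IL-2. Malt1 was lower too, by -0.47 for FP and -0.49 for IL-2.

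The NFAT genes, which encode the factors released by calcium, went different ways. Nfatc3 had 265, 265, 242 and 281 CPM under FP, 244, 235, 249 and 254 CPM under IL-2, and 347, 394, 401 and 383 CPM in PBS libraries. It was lower than in PBS without overlap, by -0.53 (SE 0.071, adjusted p = 0.00019) for FP and -0.64 (SE 0.071, adjusted p = 2e-05) for IL-2. Nfatc2 had 240, 214, 205 and 234 CPM under FP and 166 to 188 CPM in PBS libraries, a log2 change of 0.33 (adjusted p = 0.0082) whose call was lost in 11 of 17 alternatives. Nfatc1 was lower under IL-2, by -0.52 (adjusted p = 0.0019). Nr4a3 and Nr4a1 encode orphan nuclear receptors whose transcripts are quick readouts of receptor engagement. Nr4a3 had 67.3 to 125 CPM under FP, 87.6 to 100 CPM under IL-2 and 43.6 to 77.3 CPM in PBS libraries, and its log2 changes of 0.58 and 0.65 missed the threshold (adjusted p = 0.049 for FP and 0.017 for IL-2). Nr4a1 had 65.0 to 87.2 CPM under FP, 59.0 to 86.8 CPM under IL-2 and 56.1 to 185 CPM in PBS libraries, which overlap.

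**Figure D2:**
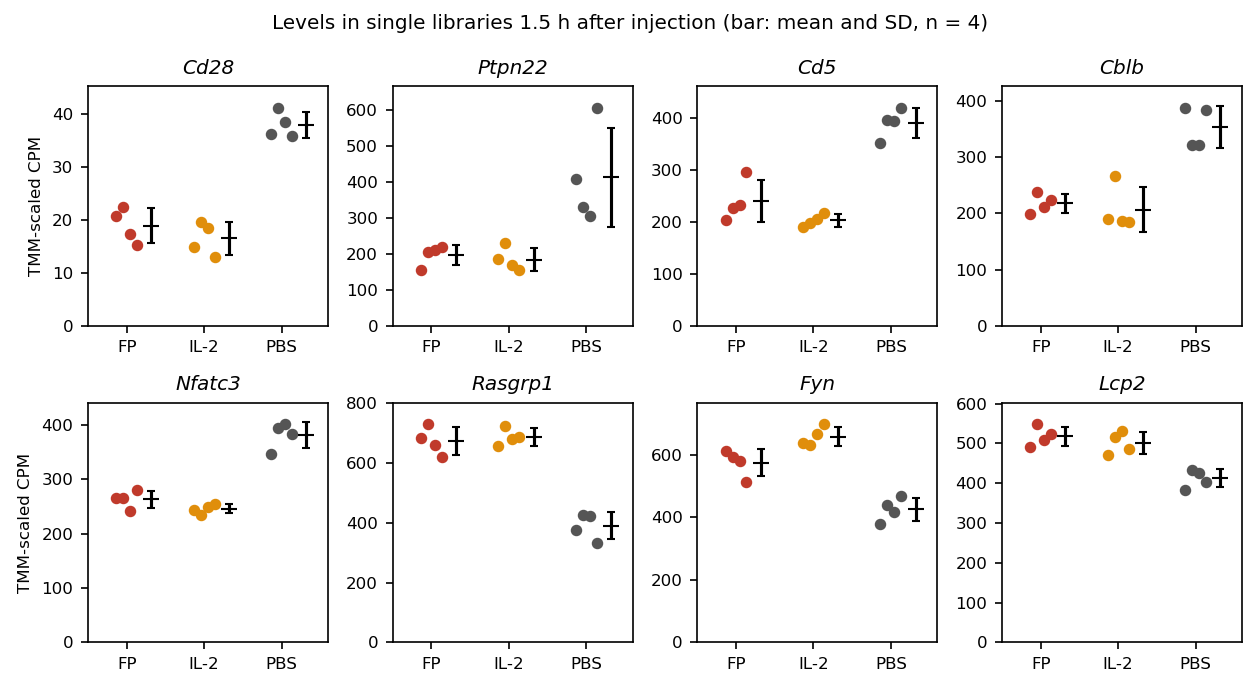
CPM of 8 genes at 1.5 h, 1 point per library with mean and SD (n = 4), for FP, IL-2 and PBS from left to right. Rasgrp1, Fyn and Lcp2 lie above PBS, and Cd28, Ptpn22, Cd5, Cblb and Nfatc3 lie below it. No treated library overlaps with PBS in any of the 8 panels, while FP and IL-2 overlap with each other in most.

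Both Rasgrp1 and Ptpn22 have a promoter window with a match to the letters of a STAT site, shown because this pair had the largest changes in each direction among genes with a window. The windows run from 250 bases before to 50 after the annotated start and come from RefSeq on GRCm38.p6. The Rasgrp1 window is chr2:117342828-117343127 on the minus strand, and the Ptpn22 window, the downstream one of its 2, is chr3:103860027-103860326 on the plus strand. Capitals mark the match.
Rasgrp1: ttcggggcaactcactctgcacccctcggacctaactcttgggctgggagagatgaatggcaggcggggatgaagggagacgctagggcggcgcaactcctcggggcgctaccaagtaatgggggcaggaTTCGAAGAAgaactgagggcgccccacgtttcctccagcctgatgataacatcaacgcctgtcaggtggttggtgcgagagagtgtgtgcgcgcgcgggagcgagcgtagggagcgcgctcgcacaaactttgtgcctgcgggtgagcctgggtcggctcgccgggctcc
Ptpn22: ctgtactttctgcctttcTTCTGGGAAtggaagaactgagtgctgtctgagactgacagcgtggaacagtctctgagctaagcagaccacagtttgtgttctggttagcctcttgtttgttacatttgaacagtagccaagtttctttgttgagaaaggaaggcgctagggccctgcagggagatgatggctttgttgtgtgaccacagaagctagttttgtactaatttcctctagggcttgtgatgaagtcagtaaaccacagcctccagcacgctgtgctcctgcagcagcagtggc
The letters searched were TTCNNNGAA for STAT, TGGAAA for NFAT, TGANTCA for AP-1, TGACGTCA for CRE and ACCGGAAGT for ETS, on both strands. Of the 33 members 28 had at least 1 window, 40 windows in all. A STAT match lay in 3 member windows (7.5%), of Cd3d, Ptpn22 and Rasgrp1, against 8.3% of 32851 windows genome-wide. An NFAT match lay in 9 member windows (22.5%), against 21.4% of all windows. The AP-1 and ETS letters were found in 0 member windows and the CRE letters in 1, of Zap70, against 7.81%, 1.1% and 1.79% of all windows. A match is only a description of the letters.

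FP and IL-2 were not told apart at 1.5 h. None of the 33 genes and 0% of all genes were called by edgeR's quasi-likelihood test between them, DESeq2 called none of the members, and 4 members had an unadjusted p below 0.05. The members' log2 differences of FP over IL-2 ran from -0.19 to 0.24. Leaving out libraries moved the FP count between 6 and 11: it was 6 without FP replicate 1 and 7 without FP replicate 2 or FP replicate 3. The sample label of FP replicate 2 carries another date than those of the other 1.5 h libraries. What that date stands for is not given. The IL-2 count stayed between 10 and 12. Summed myeloid markers were 891 to 1600 CPM under FP, 436 to 2310 CPM under IL-2 and 491 to 1900 CPM in PBS libraries, which overlap.

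Beyond the 33, 96 other genes of the pathway were tested. Under FP 6 were higher and 5 lower at 1.5 h, and under IL-2 12 were higher and 14 lower. That is 11.5% of the 96 under FP, against 6.67% of all genes, and 27.1% under IL-2, against 14.2%. Myc, a growth regulator induced by many mitogens, had the largest called change, with 1.71 for FP and 1.77 for IL-2. Rcan3, a regulator of calcineurin, was higher by 1.14 and 1.21, and Traf6, a ubiquitin ligase of the NF-kB branch, by 0.93 and 1.04, for FP and IL-2 in that order. Dgkh, another diacylglycerol kinase gene, was higher by 0.84 under FP, and Pecam1, which encodes an inhibitory adhesion receptor, was lower by -0.98 under IL-2.

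At 4 h, 0 of the 33 genes were called by edgeR under either treatment, against 0.913% of all genes under FP and 0.652% under IL-2. At an unadjusted p below 0.05 there were 9 under FP and 5 under IL-2, and DESeq2 called 5 and 1. Under FP the DESeq2 calls were Rasgrp1, higher, and Cblb, Dgkz, Nfatc1 and Nfatc3, lower, and under IL-2 Cblb, lower. Libraries within a 4 h group differed up to 4.12-fold for a member. By the sample labels, FP replicates 2 and 4 came from another lane than the other 4 h libraries used. Lane and FP therefore cannot be fully told apart at 4 h. Cblb had 144, 161 and 161 CPM under FP, 165, 200, 174 and 180 CPM under IL-2, and 268, 283 and 254 CPM in PBS libraries. Every treated library lay below every PBS library, with a log2 change of -0.79 (SE 0.14, adjusted p = 0.016) for FP and -0.58 (SE 0.13, adjusted p = 0.051) for IL-2. Dgkz had 286, 240 and 268 CPM under FP, 371, 355, 293 and 302 CPM under IL-2, and 527, 551 and 393 CPM in PBS libraries. Its log2 change was -0.89 (adjusted p = 0.03) for FP and -0.57 (adjusted p = 0.14) for IL-2. Same-numbered 4 h libraries mostly deviated together. FP replicate 2, however, correlated at 0.21 with PBS replicate 2 and best with PBS replicate 1. It also shares the tag in its column name with PBS replicate 1, while PBS replicate 2 carries another tag. Pairing by number therefore goes against the tags for this library. With the replicate number as a block, Cblb and Dgkz were called lower under FP, at -0.79 (adjusted p = 0.0044) and -0.87 (adjusted p = 0.0053). This block sets FP replicate 2 beside PBS replicate 2, so these calls rest on a doubtful pairing. Rasgrp1 had 517, 718 and 591 CPM under FP, 524, 526, 535 and 491 CPM under IL-2, and 433, 344 and 418 CPM in PBS libraries, and its 0.61 under FP did not pass in edgeR (adjusted p = 0.097). DESeq2 called it, at 0.58 (adjusted p = 0.0059).

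Cd3d was the most scattered member at 4 h. It had 439, 366 and 107 CPM under FP, 388, 141, 112 and 104 CPM under IL-2, and 381, 310 and 157 CPM in PBS libraries. Each group held both high and low libraries. Replicate 4, whose libraries share a tag in the column names, was the lowest under FP (107 CPM), IL-2 (104 CPM) and PBS (157 CPM). With the tag in the column names as a factor, chosen after seeing the data and not explained in the labels, Cd3d and Cd3g were called lower under IL-2, at -0.74 (adjusted p = 0.0046) and -0.71 (adjusted p = 0.0065). In the same fit Cd4, Cd5, Dgkz, Cblb and Nfatc1 were called lower under FP, at -0.70 to -0.88. FP and IL-2 were again not told apart, with 0 of the 33 genes and 0% of all genes called by edgeR, 1 member at an unadjusted p below 0.05 and 0 by DESeq2. Of the 96 other pathway genes only Orai2, a calcium channel subunit gene, was called at 4 h, at -1.13 under FP. This is 1.04% of the 96, against 0.913% of all genes.

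At 16 h FP and IL-2 gave different pictures. Under FP, 17 of the 33 genes were called, 2 higher and 15 lower, against 28.8% of all genes (14.4% higher and 14.3% lower), and the members' median was -0.24 against -0.05 over all genes tested. Under IL-2, 0 were called by edgeR and by DESeq2, against 0.35% of all genes, with 3 members at an unadjusted p below 0.05. FP against IL-2 called 14 of the 33, 2 higher and 12 lower, against 31.8% of all genes (16.8% higher and 14.9% lower). By role, FP lowered 5 of 8 receptor genes, 2 of 7 kinase and phosphatase genes, 2 of 6 adaptor genes and 5 of 7 lipid messenger and NF-kB branch genes. Of the 5 transcription factor genes 2 were higher and 1 lower.

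The CD3 chains did not move as a block. Cd3d and Cd3g, which encode the delta and gamma chains, sit next to each other on chromosome 9 in opposite orientation (Cd3d at chr9:44981786-44987339 on the plus strand, Cd3g at chr9:44969572-44980431 on the minus strand), with Cd3e close by at chr9:44998740-45009627 on the minus strand (GRCm38). Their promoter windows are shown because 2 of these neighbours fell and the third was not called. They are chr9:44981536-44981835 for Cd3d, chr9:44980382-44980681 for Cd3g and chr9:45009562-45009861 for Cd3e, with the STAT match of Cd3d and the NFAT matches of Cd3g and Cd3e in capitals.
Cd3d: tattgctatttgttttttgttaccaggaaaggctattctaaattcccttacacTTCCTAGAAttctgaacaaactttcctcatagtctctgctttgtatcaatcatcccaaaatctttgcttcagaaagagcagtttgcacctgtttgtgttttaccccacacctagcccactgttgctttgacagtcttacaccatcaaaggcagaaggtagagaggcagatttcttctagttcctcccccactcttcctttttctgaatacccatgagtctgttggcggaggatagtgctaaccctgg
Cd3g: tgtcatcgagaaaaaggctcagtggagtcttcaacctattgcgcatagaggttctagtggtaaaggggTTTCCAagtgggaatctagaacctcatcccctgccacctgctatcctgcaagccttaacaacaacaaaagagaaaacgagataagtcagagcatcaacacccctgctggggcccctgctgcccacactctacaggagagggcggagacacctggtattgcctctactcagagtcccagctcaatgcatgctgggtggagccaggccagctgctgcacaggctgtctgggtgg
Cd3e: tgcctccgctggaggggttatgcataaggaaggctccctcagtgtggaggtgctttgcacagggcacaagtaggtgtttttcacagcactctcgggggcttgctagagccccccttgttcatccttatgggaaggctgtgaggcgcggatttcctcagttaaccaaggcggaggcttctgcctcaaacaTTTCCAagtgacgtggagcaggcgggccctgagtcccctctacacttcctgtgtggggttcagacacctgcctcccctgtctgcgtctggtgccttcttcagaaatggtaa
Cd3d had 160, 146, 149 and 162 CPM under FP, 202, 229, 201 and 204 CPM under IL-2, and 187, 229, 313 and 259 CPM in PBS libraries. All FP libraries lay below all others. The log2 change for FP was -0.68 (SE 0.11, adjusted p = 0.00014) against PBS and -0.44 (SE 0.11, adjusted p = 0.0048) against IL-2. Cd3g had 263, 244, 233 and 250 CPM under FP, 327, 359, 353 and 333 CPM under IL-2, and 304, 369, 449 and 438 CPM in PBS libraries. It was lower without overlap, by -0.66 (SE 0.099, adjusted p = 5.4e-05) against PBS and -0.47 (SE 0.099, adjusted p = 0.001) against IL-2. Cd3e had 661, 661, 674 and 677 CPM under FP, 668, 690, 673 and 679 CPM under IL-2, and 653, 725, 849 and 546 CPM in PBS libraries. The ranges overlap, and the log2 change was -0.05 (SE 0.099, adjusted p = 0.7). Cd247, the zeta chain gene, was lower by -0.35 (adjusted p = 0.0018), but 60.3% of its exon bases are shared with other annotated genes, most of it with Pou2f1 on the opposite strand, and since it is not stated that counting used strand its value is uncertain.

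The brakes Ptpn22 and Cblb were low under FP at 16 h and not under IL-2. Ptpn22 had 183, 175, 172 and 160 CPM under FP, 307, 299, 286 and 298 CPM under IL-2, and 326, 282, 281 and 261 CPM in PBS libraries. The FP range was separate from both others, with log2 changes of -0.74 (SE 0.072, adjusted p = 5.7e-07) against PBS and -0.79 (SE 0.072, adjusted p = 2.5e-07) against IL-2. Cblb had 179, 183, 173 and 172 CPM under FP, 270, 281, 262 and 269 CPM under IL-2, and 284, 269, 267 and 251 CPM in PBS libraries. FP again stood below both, by -0.60 (SE 0.060, adjusted p = 6.8e-07) against PBS and -0.62 (SE 0.060, adjusted p = 4.6e-07) against IL-2. Malt1 had 92.4 to 99.7 CPM under FP, 136 to 147 CPM under IL-2 and 133 to 143 CPM in PBS libraries, a log2 change of -0.50 (SE 0.060, adjusted p = 4.3e-06) against PBS and -0.57 (SE 0.060, adjusted p = 9.3e-07) against IL-2. Dgka had 739 to 820 CPM under FP, 944 to 1070 CPM under IL-2 and 1060 to 1150 CPM in PBS libraries, a log2 change of -0.51 (SE 0.068, adjusted p = 1.6e-05). Neither gene's FP range touched that of another group. Cd5 was lower by -0.45, Dgkz by -0.41 and Themis by -0.48, while Bcl10, Ptprc, Plcg1, Cd6 and Nfatc3 were lower by -0.28 to -0.34. Of these, the call was lost in 15 of 17 alternatives for Cd6, in 9 for Themis and for Bcl10, and in 8 for Ptprc. Nfatc1 was lower against IL-2, by -0.43 (SE 0.11, adjusted p = 0.0047), and was not called against PBS.

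The 2 higher genes were transcription factor genes. Nfatc2 had 256, 242, 240 and 265 CPM under FP, 198, 209, 201 and 192 CPM under IL-2, and 201, 220, 186 and 150 CPM in PBS libraries. Nr4a3 had 55.4, 57.4, 55.3 and 58.0 CPM under FP, 43.6, 43.7, 46.9 and 41.5 CPM under IL-2, and 45.7, 48.9, 46.1 and 36.5 CPM in PBS libraries. Neither gene overlapped with another group, and the log2 changes against PBS were 0.40 (SE 0.091, adjusted p = 0.0018) for Nfatc2 and 0.35 (SE 0.083, adjusted p = 0.0027) for Nr4a3.

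The FP count at 16 h was 10 without IL-2 replicate 3 (the 3 groups share 1 estimate of the spread), 11 without FP replicate 3, 24 without PBS replicate 4, and 10 when only FP and PBS entered the fit. The FP against IL-2 count was 9 without IL-2 replicate 1, 2 or 3 or FP replicate 3. Summed B cell markers were 428 to 571 CPM under FP and 453 to 711 CPM in PBS libraries, with 4 of 12 called lower, and summed myeloid markers were 474 to 931 CPM under FP and 653 to 1140 CPM in PBS libraries; their part in the result was not tested. Against IL-2, where B cell markers summed to 686 to 766 CPM and did not overlap with FP, 5 of 12 B cell markers were called lower, and 0 of 11 myeloid markers tested were called, with all 11 at negative values. In such bulk samples, fewer cells of a type and less RNA per cell cannot be told apart. Of the 96 other pathway genes 7 were higher and 29 lower under FP, with Rcan3 at 1.00, Orai2 at -0.94, Myc at 0.84 and Pdcd1, which encodes the inhibitory receptor PD-1, at -0.81. In all 37.5% of the 96 were called, against 28.8% of all genes. Lower calls were spread over several parts of that list. Among 15 further brakes and ligases 0 were higher and 7 lower, and among 18 kinases and adaptors 0 and 6. For 15 calcium and NFAT genes the counts were 1 and 6, and for 15 NF-kB branch genes 1 and 5. For 10 receptor chains and coreceptors they were 1 and 3, for 9 induced readouts 2 and 2, and for 14 Ras and PI3K genes 2 and 0. Against IL-2, FP raised 12 and lowered 25 of the 96, with Myc at 1.22, Rcan3 at 1.05, Tnfaip3, which encodes the NF-kB inhibitor A20, at -1.03, and Pdcd1 at -0.94. Called in that comparison were 38.5% of the 96 and 31.8% of all genes.

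Whether the FP effect differed between 16 h and 1.5 h was tested as the difference of the log2 changes, each against its own PBS. It differed for 4 of the 33 genes, 1 higher and 3 lower, against 4.98% of all genes (3.56% higher and 1.42% lower). Rasgrp1 had a smaller change at 16 h by -0.68 (SE 0.10, adjusted p = 4.1e-05), with 485, 501, 494 and 472 CPM under FP and 438, 467, 489 and 456 CPM in PBS libraries at 16 h, ranges that overlap. Lcp2 and Prkcq, which encodes the kinase that links the receptor to NF-kB, differed by -0.48 and -0.44. The Cd28 difference was 0.83 (adjusted p = 0.0054), the decrease at 1.5 h being the larger. The count fell to 1 without the libraries of replicate 2 or of replicate 3. Of the calls at both times, 8 genes were shared (Cd5, Cd6, Ptpn22, Malt1, Dgkz, Cblb, Nfatc2 and Nfatc3), which is 47.1% of the 16 h calls and 66.7% of the 1.5 h calls; the Cd6 call at 16 h and the Nfatc2 call at 1.5 h were each lost in most alternatives, as given above.

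**Figure D3:**
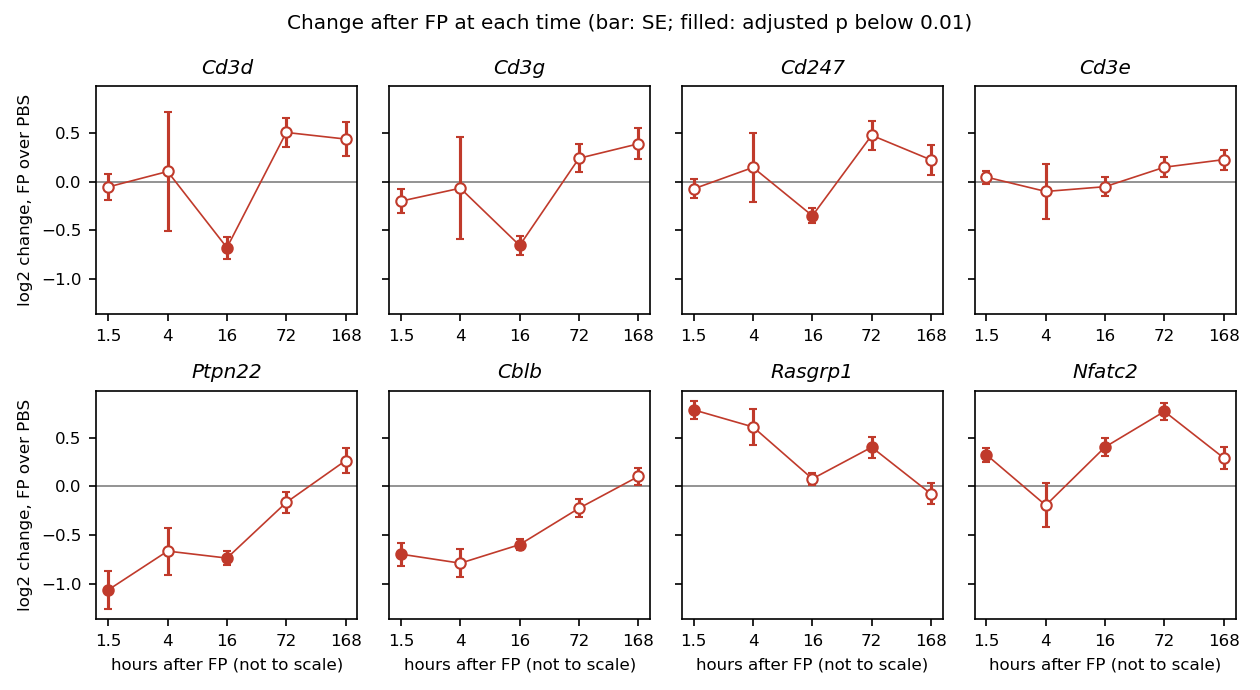
Log2 change of FP over PBS with its SE at 1.5, 4, 16, 72 and 168 h for 8 genes; filled points were called at an adjusted p below 0.01. Cd3d and Cd3g have called decreases at 16 h and positive, uncalled values at 72 and 168 h, Rasgrp1 has called increases at 1.5 and 72 h, and Nfatc2 at 1.5, 16 and 72 h.

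At 72 h after FP, 4 of the 33 genes were higher than in PBS Tregs and 0 were lower, against 30.4% of all genes called (17.3% higher). A share of 4 in 33 is below the share of all genes. The members' median was 0.10, against -0.05 over all genes. Nfatc2 had 283, 319, 324 and 275 CPM under FP, 192, 184 and 168 CPM under IL-2, and 178, 180 and 170 CPM in PBS libraries. All FP libraries stood above all others, with log2 changes of 0.77 (SE 0.088, adjusted p = 2.9e-05) against PBS and 0.73 (SE 0.088, adjusted p = 4.6e-05) against IL-2. Lat, the membrane scaffold of the pathway, had 327, 401, 337 and 303 CPM under FP, 265, 246 and 225 CPM under IL-2, and 265, 256 and 231 CPM in PBS libraries. Rasgrp1 had 616, 616, 555 and 574 CPM under FP, 485, 453 and 377 CPM under IL-2, and 496, 429 and 414 CPM in PBS libraries. For Lat, Rasgrp1 and Prkcq the FP range lay above the others, with log2 changes against PBS of 0.45 (adjusted p = 0.0048), 0.40 (adjusted p = 0.0085) and 0.36 (adjusted p = 0.007).

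IL-2 against PBS at 72 h gave 0 members by edgeR and by DESeq2, and 0% of all genes, with members' log2 changes between -0.07 and 0.15. At an unadjusted p below 0.05 in edgeR there were 0 members and 0.44% of all genes, a share below that expected by chance. Same-numbered IL-2 and PBS libraries deviated together here (0.41 to 0.54), which the test did not use. A count of 0 therefore does not show that IL-2 had no effect. FP against IL-2 gave the same 4 genes as FP against PBS, against 30.8% of all genes (17.9% higher); both comparisons share the FP libraries. Deviations of same-numbered 72 h libraries of FP and IL-2 correlated only weakly (0.12 to 0.22). FP replicate 2 matched IL-2 replicate 1 best, so this pairing is uncertain. With the replicate number as a block 7 were called, adding Cd247 at 0.60, Cd3d at 0.57 and Cblb at -0.34. Nfatc2 kept its call in each of 17 alternatives, and the other 3 did not: the FP against PBS count was 1 without FP replicate 2, FP replicate 3, PBS replicate 2, PBS replicate 3 or IL-2 replicate 2, 2 without FP replicate 1 and 6 without FP replicate 4, and the FP against IL-2 count was 1 without IL-2 replicate 2 or IL-2 replicate 3, 2 without FP replicate 2 and 7 without FP replicate 4.

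Summed myeloid markers were 26.5 to 118 CPM in FP libraries at 72 h and 564 to 1390 CPM in PBS libraries, and 11 of the 12 tested were called lower. Summed B cell markers were 516 to 642 CPM under FP and 519 to 584 CPM in PBS libraries, but single markers moved apart. Of the 12 tested, 10 had negative log2 changes, with 2 called higher and 1 called lower. The part of the myeloid difference in the members' values was not tested. The list of 96 other pathway genes had 33 that were higher and 10 that were lower under FP at 72 h. In all 44.8% of the 96 were called, against 30.4% of all genes, of which 17.3% were higher. Trat1, an adaptor bound to the receptor complex, was higher by 1.39, Icos, a costimulatory receptor, by 1.35, Tnfrsf9, which encodes 4-1BB, by 1.24, and the kinase gene Tec by 1.07. Among the 18 further kinases and adaptors 10 were higher and 2 lower, and among 14 Ras and PI3K genes 6 and 0. For 15 brakes and ligases the counts were 5 and 2, and for 10 receptor chains and coreceptors 4 and 0. For 15 calcium and NFAT genes they were 3 and 1, and for 15 NF-kB branch genes 2 and 2. The 9 induced readouts were split, 3 higher and 3 lower, with log2 changes from -0.83 to 1.24. FP against IL-2 raised 28 and lowered 11 of the 96 (40.6%, against 30.8% of all genes), with Tnfrsf4, which encodes OX40, at 1.06.

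The FP effect differed between 72 h and 16 h for 11 of the 33 genes, each less negative or more positive at 72 h, against 15.6% of all genes (8.6% higher). The difference was 1.18 for Cd3d (SE 0.20, adjusted p = 0.00019), 0.89 for Cd3g (SE 0.19, adjusted p = 0.001) and 0.82 for Cd247 (SE 0.17, adjusted p = 0.0011). At 72 h Cd3d had 315, 325, 239 and 223 CPM under FP and 221, 192 and 170 CPM in PBS libraries. The FP libraries lay just above the PBS range, and 0.51 was not past the threshold (adjusted p = 0.017). Lat, Ptprc, Ptpn22, Prkcq, Cd5, Malt1, Nfatc3 and Cblb differed by 0.37 to 0.59. No gene of the 11 kept its call in every one of 8 alternatives: 0 were called without the libraries of replicate 2, 2 without replicate 3 and 7 without replicate 4. In the list of 96 other pathway genes 22 were higher and 1 lower in this difference (24%, against 15.6% of all genes), with Icos at 1.51.

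At 168 h, 0 of the 33 genes were called after FP by edgeR and by DESeq2, against 1.21% of all genes, and 5 had an unadjusted p below 0.05. The members' median was 0.12. Cd3d had 395, 325, 235 and 294 CPM under FP and 282, 209 and 202 CPM in PBS libraries. The ranges overlap, and the log2 change of 0.44 did not pass (adjusted p = 0.27). Rasgrp1, with 389 to 481 CPM under FP and 438 to 512 CPM in PBS libraries, and Ptpn22, with 293 to 370 CPM under FP and 225 to 320 CPM in PBS libraries, overlapped too. Summed myeloid markers were 35.9 to 58.5 CPM under FP and 378 to 529 CPM in PBS libraries. The FP effect at 168 h differed from that at 72 h for 0 members by edgeR and by DESeq2, against 8.6% of all genes, with 6 members at an unadjusted p below 0.05. Among the 96 other pathway genes, 3 were higher and 5 lower in this difference (8.33%, against 8.6% of all genes). The largest were Egr2 and Egr3, early response factors known to limit T cell activation, at 1.11 and 1.08, and Icos and Tnfrsf9 at -1.07 and -1.06.

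In vitro, 1.5 h of IL-2 changed 18 of the 33 genes, 5 higher and 13 lower, against 13.9% of all genes (7.4% higher and 6.54% lower), and the members' median was -0.10 against -0.0021 over all genes. Replicates lay closest together here, so small changes passed. All 5 transcription factor genes were lower, 5 of 8 receptor genes were lower and 1 higher, and the other 3 roles held calls in both directions. Ubash3a, which encodes a protein that restrains T cell receptor signalling, had 117, 114 and 119 CPM with IL-2 and 200, 192 and 188 CPM with PBS, a log2 change of -0.73 (SE 0.037, adjusted p = 6e-15). Cd5 had 271, 272 and 264 CPM with IL-2 and 437, 425 and 411 CPM with PBS, a log2 change of -0.66 (SE 0.036, adjusted p = 3.3e-14). Neither gene's groups came close to each other. Lcp2 had 311, 315 and 318 CPM with IL-2 and 210, 206 and 209 CPM with PBS, a log2 change of 0.60 (SE 0.034, adjusted p = 1e-13). Rasgrp1 had 616, 628 and 618 CPM with IL-2 and 448, 443 and 436 CPM with PBS, a log2 change of 0.49 (SE 0.034, adjusted p = 7.7e-12). Both were higher in every IL-2 library than in any PBS library. Grap2, the adaptor that carries SLP-76 to Lat, had 197, 209 and 199 CPM with IL-2 and 282, 258 and 260 CPM with PBS, a log2 change of -0.41 (SE 0.039, adjusted p = 4.1e-09). Cd6 had 267, 270 and 261 CPM with IL-2 and 359, 356 and 340 CPM with PBS, a log2 change of -0.40 (SE 0.035, adjusted p = 8.5e-10).

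Nr4a3 had 2370, 2420 and 2300 CPM with IL-2 and 2900, 2980 and 2910 CPM with PBS in vitro, and Nr4a1 had 1390, 1460 and 1370 CPM with IL-2 and 1860, 1810 and 1780 CPM with PBS. In the libraries from animals, over all tables, Nr4a3 lay between 20.6 and 125 CPM and Nr4a1 between 46.6 and 311 CPM. The in vitro libraries of both treatments were above all others for this pair. Between IL-2 and PBS in vitro, both were lower, Nr4a1 by -0.37 (adjusted p = 1.4e-08) and Nr4a3 by -0.31 (adjusted p = 2.9e-07). The levels come from tables normalized separately, and no test between tables was made of them; table and culture cannot be told apart.

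**Figure D4:**
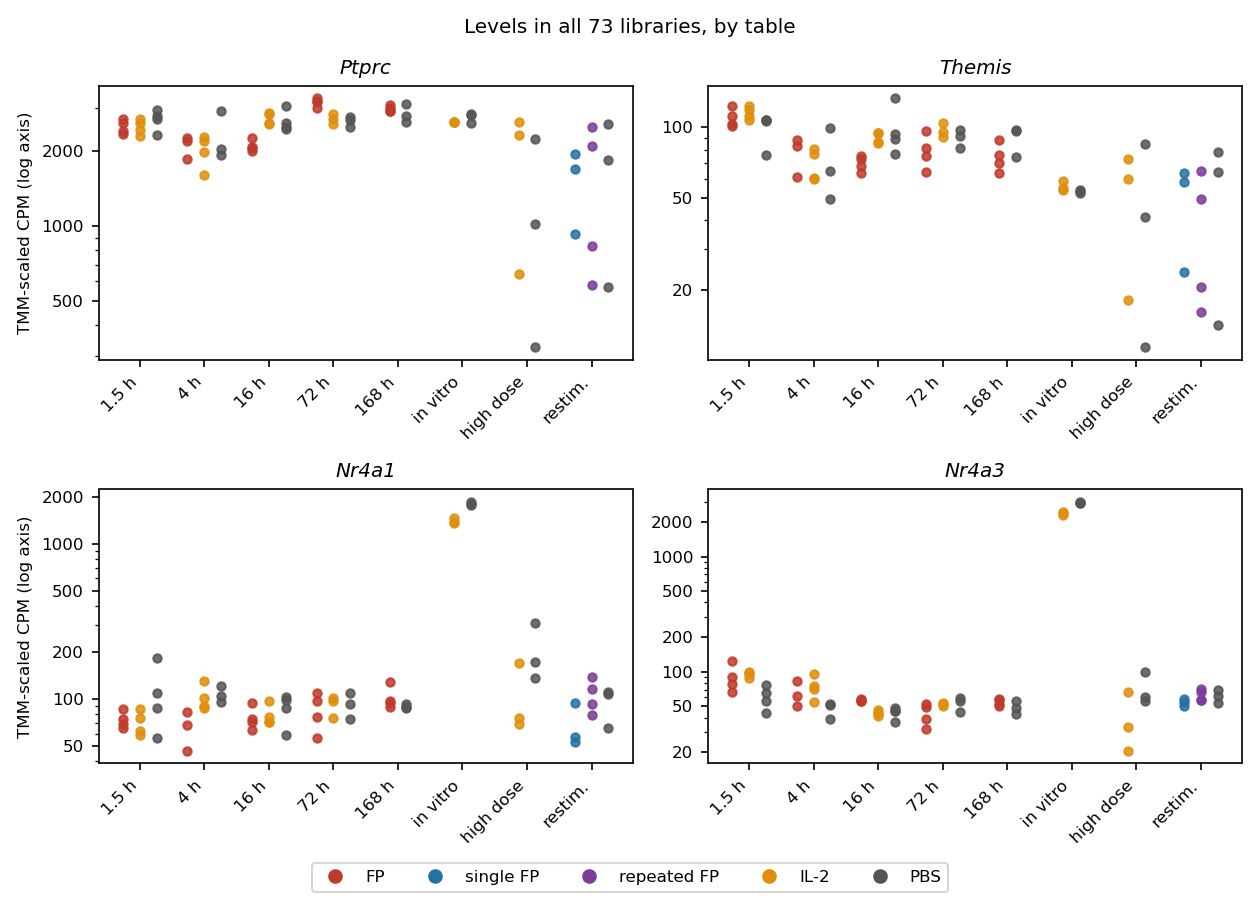
CPM of Ptprc, Themis, Nr4a1 and Nr4a3 in the 73 libraries used, by group, on a log axis. Nr4a1 and Nr4a3 are above 1000 CPM in vitro and at or below 311 CPM elsewhere, and Ptprc and Themis scatter widely under the high dose and restimulation.

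Of the IL-2 calls in vitro and at 1.5 h in the animal, 8 genes were shared, which is 44.4% of the calls in vitro and 72.7% of those in the animal. Cd28, Cd5, Cd6, Nfatc1 and Nfatc3 were lower in both and Rasgrp1 was higher in both. Ptpn22 and Malt1 went opposite ways. Ptpn22 in vitro had 870, 884 and 932 CPM with IL-2 and 737, 753 and 732 CPM with PBS, a log2 change of 0.27 (adjusted p = 1.2e-06), and Malt1 had 175, 179 and 169 CPM with IL-2 and 148, 145 and 150 CPM with PBS, a log2 change of 0.24 (adjusted p = 1e-05). Tested as a difference, the IL-2 effect in vitro and in the animal differed for 8 of the 33 genes, 5 higher and 3 lower, against 4.96% of all genes (2.13% higher and 2.84% lower). The difference was 1.43 for Ptpn22 (SE 0.26, adjusted p = 0.0011), 0.87 for Cd28, 0.72 for Malt1, 0.67 for Cblb and 0.52 for Dgkz. It was -0.69 for Fyn, -0.64 for Ubash3a and -0.48 for Nfatc2. Fyn had 387, 389 and 392 CPM with IL-2 in vitro and 402, 420 and 389 CPM with PBS, ranges that overlap. The count was 0 without the libraries of replicate 1 or of replicate 3, and 4 without those of replicate 2. Of the 96 other genes 23 were higher and 21 lower in vitro (45.8%, against 13.9% of all genes). The largest were Myc at 1.30, the kinase gene Txk at 0.87, Traf6 at 0.84 and Irf4, a factor induced by receptor signals, at 0.75. In the difference between in vitro and animal 3 were higher and 3 lower (6.25%, against 4.96% of all genes), with Ubash3b, the relative of Ubash3a, at 0.88.

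**Figure D5:**
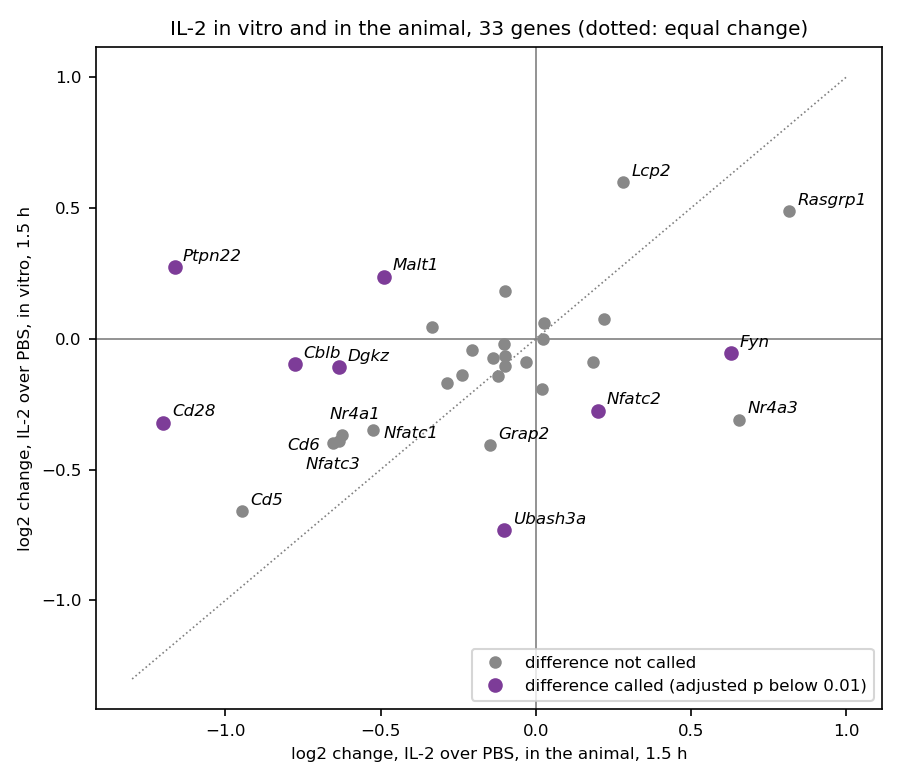
Scatter of the log2 change of IL-2 over PBS at 1.5 h in the animal (x axis) and in vitro (y axis) for the 33 genes; purple points differ between the settings at an adjusted p below 0.01, and the dotted line marks equal change. Ptpn22 and Malt1 lie at negative x and positive y, at -1.16 and 0.27 and at -0.49 and 0.24, and Rasgrp1 and Cd5 lie far out on the same sign in both.

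Under the high dose of IL-2, 0 of the 33 genes and 0% of all genes were called by edgeR, DESeq2 called 0 members, and 1 member had an unadjusted p below 0.05. The libraries of each group were far apart. Ptprc had 2620, 643 and 2340 CPM under IL-2 and 1020, 2250 and 325 CPM in PBS libraries. Themis had 72.8, 18.2 and 60.2 CPM under IL-2 and 41.1, 85.2 and 11.4 CPM in PBS libraries, and Cd28 had 108, 44.9 and 86.1 CPM under IL-2 and 52.3, 73.8 and 20.4 CPM in PBS libraries. In each group the same libraries were low for all 3 genes, replicate 2 of IL-2 and replicate 3 of PBS, and the groups overlap. Ptpn22 had the smallest p of the members, with a log2 change of 0.57 (SE 0.18, adjusted p = 0.19). Summed B cell markers were 750 to 1320 CPM under IL-2 and 351 to 577 CPM in PBS libraries, and summed myeloid markers 57.1 to 80.0 CPM under IL-2 and 126 to 142 CPM in PBS libraries; their part was not tested.

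Restimulation gave no called member. Single FP against PBS called 0 of the 33 genes by edgeR and by DESeq2, against 0.0111% of all genes, with 2 members at an unadjusted p below 0.05. Repeated FP against PBS called 0 by both tools, against 0.629% of all genes, with 4 at an unadjusted p below 0.05. Repeated against single FP called 0 by both tools, against 0.585% of all genes, with 6 at an unadjusted p below 0.05. Rasgrp1 had 333, 573 and 570 CPM after single FP, 566, 403, 578 and 504 CPM after repeated FP, and 406, 381 and 384 CPM in PBS libraries. Single FP replicate 1 lay below the PBS range and the other 2 above it, and the log2 change of single FP was 0.33 with it (adjusted p = 0.82) and 0.55 without it (adjusted p = 0.19). Cd5 had 431, 271 and 290 CPM after single FP, 465, 528, 347 and 475 CPM after repeated FP, and 463, 393 and 565 CPM in PBS libraries. Its log2 change for single FP was -0.52 (adjusted p = 0.51), and -0.76 without replicate 1 (adjusted p = 0.15). Without that library 0 members were called in each of the 3 comparisons, against 0.173%, 0.941% and 0.106% of all genes for single FP against PBS, repeated FP against PBS and repeated against single FP, with 6, 5 and 12 members at an unadjusted p below 0.05.

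After repeated FP, Prkcq had 538, 549, 596 and 512 CPM, against 416, 534 and 569 CPM after single FP and 422, 425 and 379 CPM in PBS libraries. All repeated FP libraries lay above the PBS range, but 0.43 did not pass with single FP replicate 1 in the fit (adjusted p = 0.095) or without it (adjusted p = 0.056). Nfatc2 had 285, 374, 264 and 327 CPM after repeated FP, 254, 226 and 216 CPM after single FP, and 209, 195 and 268 CPM in PBS libraries, and its 0.48 over PBS did not pass either (adjusted p = 0.12, and 0.13 without that library). Repeated FP replicates 2 and 4, single FP replicate 1 and PBS replicate 3 were low in Ptprc and Themis: Ptprc had 933, 1700 and 1960 CPM after single FP, 2100, 579, 2520 and 833 CPM after repeated FP, and 1850, 2590 and 571 CPM in PBS libraries. Summed myeloid markers were 48.6 to 126 CPM after repeated FP, 238 to 260 CPM after single FP and 126 to 252 CPM in PBS libraries. Of the 96 other pathway genes 0 were called in the 3 restimulation comparisons with single FP replicate 1 in the fit. Without it, Myc was higher after single FP, by 1.83 (adjusted p = 0.0048, against 1.47 and 0.13 with it), and after repeated FP Myc was higher by 1.60 (adjusted p = 0.0024, against 0.027 with it) and Tec by 0.77 (adjusted p = 0.0094, against 0.016 with it).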

How the data were processed

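The authors deposited counts, whole reads per Ensembl gene in 8 tables. Per the submitters' processing notes and the series' design text, reads of ribosome-depleted total RNA were aligned to GRCm38 with STAR 2.5.0 and counted on GENCODE genes with featureCounts 1.5.0. Every gene kept had over 0.5 CPM in at least 3 columns, checked on the values.

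Libraries were grouped by their treatment label. The 91 samples held 75 libraries. Of these, 16 samples were repeat runs at 72 h and in vitro and were summed with the run they repeat, since their chi-square per degree of freedom was 1.03 to 1.08, against 1.89 to 68.7 between replicates. Labels of 2 libraries at 4 h contradict each other and these 2 were left out, which leaves 73. Gene lengths and positions are those of the GRCm38 annotation used here, which is not the counting annotation.

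A separate edgeR 4.0.16 model (R 4.3.3) was used for every table: TMM scaling, filterByExpr, 1 mean per group, a 2-sided quasi-likelihood F test and Benjamini-Hochberg adjustment over all genes, with calls below 0.01. The SE of a log2 change was obtained as its size over the root of F. Differences between tables are interactions in a joint fit of both tables. Alternatives were DESeq2 1.42.0, its size factors, no filter, only the groups compared, 1 run, a replicate block and each replicate left out. At 4 h the lane in the sample labels was a further alternative. Added after the data were seen were the tag in the column names at 4 h and the restimulation fit without single FP replicate 1. Same-numbered libraries were marked as possibly paired where every pair's deviations correlated over 0.1. At 4 h these were IL-2 and PBS (0.44 to 0.85) and FP and PBS (0.21 to 0.84). At 72 h they were IL-2 and PBS (0.41 to 0.54) and FP and IL-2 (0.12 to 0.22). No main test used a pairing, which entered only through the replicate block alternative. FP replicate 2 correlated best with replicate 1 of PBS at 4 h and with replicate 1 of IL-2 at 72 h, so the FP pairings are uncertain. At 4 h it also shares its column tag with PBS replicate 1, so the block by number goes against the tags there. Counting error was not small beside replicate spread in every table. In vitro, the chi-square per degree of freedom was 1.89 to 3.74 between first runs of replicates and 1.03 to 1.075 between runs of the same library.

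The members, roles and lists were chosen with earlier results of these data known. By rule, the 12 members with the largest called change are given per library, with up to 6 called members per comparison in full and up to 4 called genes of the other pathway list. Fyn, Lcp2, Lat, Prkcq, Cd3e, Malt1, Dgka, Nr4a1, Nr4a3, Grap2, Ptprc and Themis were added after their values were seen.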

Additional observations from a re-analysis of the deposited data

Results flagged for a closer look

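Of 120 groups of 4 libraries of the 12 members given per library, 8 held a library far from the others, where chance alone gives about 1 in 20. At 1.5 h these were Cd6 at 438 CPM in PBS replicate 4 (337 to 345 CPM in the others), Cblb at 266 CPM in IL-2 replicate 2 (184 to 190 CPM) and Nfatc2 at 218 CPM in IL-2 replicate 4 (198 to 201 CPM). At 4 h, Cd3d had 388 CPM in IL-2 replicate 1, against 104 to 141 CPM in the other IL-2 libraries. At 16 h, Cd5 had 425 CPM in IL-2 replicate 4 (445 to 447 CPM in the others) and Cd3d 229 CPM in IL-2 replicate 2 (201 to 204 CPM). Cd5 at 72 h had 488 CPM in FP replicate 2 (409 to 417 CPM in the others), and Cd28 at 168 h had 69.3 CPM in FP replicate 2 (65.5 to 65.9 CPM).

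Effects that differed between tables by the interaction test were flagged too. For FP at 16 h minus 1.5 h these were Cd28 at 0.83, Rasgrp1 at -0.68, Lcp2 at -0.48 and Prkcq at -0.44. For FP at 72 h minus 16 h they were Cd3d at 1.18, Cd3g at 0.89, Cd247 at 0.82, Lat at 0.59, Ptprc at 0.58, Ptpn22 at 0.56, Prkcq at 0.55, Cd5 at 0.53, Malt1 at 0.47, Nfatc3 at 0.46 and Cblb at 0.37. For IL-2 in vitro minus in the animal they were Ptpn22 at 1.43, Cd28 at 0.87, Malt1 at 0.72, Cblb at 0.67, Dgkz at 0.52, Nfatc2 at -0.48, Ubash3a at -0.64 and Fyn at -0.69. Each comparison between tables also compares sequencing runs and sorts, which cannot be told apart from time or culture.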

How the results depend on the processing

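No call changed sign under the alternatives run. Of the called log2 changes, 101 of 103 kept their call with DESeq2, 99 with its size factors, 97 without the low-count filter, 98 with the replicate block, and 46 of 62 with only the groups compared. Of 928 values from fits without 1 replicate, 726 kept their call. Counts of called members moved by over 1.5 times as follows. For IL-2 at 4 h the count was 0, and it was 1 with DESeq2 and 2 with the column tag as a factor. For FP at 4 h it was 0, and 5 with DESeq2, 2 with the replicate block and 5 with the tag. With only the groups compared, FP at 16 h gave 10 in place of 17, and FP at 72 h gave 1 against PBS and 1 against IL-2 in place of 4; the second run alone gave 2 for FP against PBS. The replicate block gave 7 for FP against IL-2 at 72 h, and 2 for the FP effect at 168 h minus 72 h, which was 0; these samples share only a number in the last case. The block changed no other count by over 1.5 times. Leaving out replicates gave 10 to 12 for IL-2 and 6 to 11 for FP at 1.5 h, 10 to 24 for FP against PBS and 9 to 18 for FP against IL-2 at 16 h, 1 to 6 and 1 to 7 at 72 h, 16 to 18 in vitro, 1 to 4, 0 to 9 and 0 to 8 for the differences 16 h minus 1.5 h, 72 h minus 16 h and in vitro minus animal, and 0 to 0 in the others. The cause of these moves was not tested. Common biological variation was 4.48% in vitro, 11.2% to 19.9% at 1.5, 16, 72 and 168 h, 27.0% under restimulation, 38.4% at 4 h and 40.7% under the high dose, where a count of 0 says little.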

Other observations

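Labels of a pair of 4 h libraries contradict each other, so these libraries entered no comparison. The library titled FP replicate 3 and the library titled PBS replicate 3 had 196 and 257 CPM of Cblb, 663 and 484 CPM of Rasgrp1, 308 and 435 CPM of Dgkz, 283 and 453 CPM of Nfatc3, 179 and 291 CPM of Ptpn22, and 123 and 221 CPM of Cd3d, in that order, as CPM of the library total without TMM scaling.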
